A study of Mus musculus with 6 samples.

Results

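The splicing regulators described here are 37 genes, read by 115 of the 45037 probe sets that were tested. They were chosen by name: every gene whose only symbol in the platform annotation begins with Srsf or Hnrnp, together with Clk1 to Clk4, Tra2a, Tra2b, Srpk1 and Srpk2. This gave 10 SR protein genes with 33 probe sets, 2 Tra2 genes with 11, 4 Clk kinase genes with 5, 2 Srpk kinase genes with 8 and 19 hnRNP genes with 58. The tissue was the lateral wall of the mouse cochlea, made up of spiral ligament and stria vascularis. It was dissected from aged CBA/CaJ mice of 1.5 years (old) and from CBA/CaJ young adults of 1 to 3 months (young), with 3 arrays per age and no treatment or engineered allele named in the labels. Mice of both sexes were used, and the labels do not say how many animals gave a sample, so the p-values rest on the spread between these arrays, which may be technical. Values are log2 signals from Affymetrix arrays, and differences are old minus young.

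SR proteins bind exons through RNA recognition motifs and carry a tail rich in arginine and serine, through which they recruit the spliceosome. Tra2a and Tra2b are close relatives that bind purine-rich exonic enhancers. Clk kinases in the nucleus and Srpk kinases, which act largely in the cytoplasm, phosphorylate that tail and so set where SR proteins reside and how active they are. The hnRNPs coat nascent transcripts and in many cases oppose exon inclusion. Many SR and hnRNP genes limit their own level by splicing in a poison exon or an alternative 3′ region, so that a single gene yields several RNA species, and different probe sets may read different ones.

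In old lateral wall, Tra2a and Srsf1 each rose on 2 probe sets, by up to 0.76 and 0.64 log2. Srsf6 rose on 1 of its 4 probe sets, and Hnrnpdl, Srpk2 and Hnrnpab each fell on a single probe set. These were 8 called probe sets of 115 (6.96%), 5 higher and 3 lower, at a limma p-value adjusted over all probe sets of 0.05. The same rule called 4.71% of all probe sets, 1.86% higher and 2.84% lower. Of the 115, 100 had a mean above the median signal of 6.28, and 7 of those 100 were called, beside 7.33% of all probe sets above it. The share of called members was therefore close to that of all probe sets above the median signal, and the results below concern single genes rather than the class. With each gene read by its brightest probe set, only Tra2a of the 37 genes passed, being higher, over 18193 genes, where 4.86% of genes passed, 2.50% higher and 2.37% lower. Without young replicate 2, described below, 12 member probe sets passed, 8 higher and 4 lower, beside 7.53% of all probe sets. The median difference was 0.02 over member probe sets and 0.01 over all probe sets.

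The lateral wall markers were in place: all 13 markers of strial marginal, intermediate and basal cells and of spiral ligament fibrocytes lay above the median signal, and their mean level was 12.43 to 12.50 on old arrays and 12.31 to 12.44 on young arrays, with none called. The 3 marginal cell markers among them did not overlap as a group, with a mean of 11.50 to 11.75 on old arrays and 11.19 to 11.45 on young arrays. Of these, Esrrb and Kcne1 lay wholly higher in old samples, by 0.39 and 0.33, without passing. Bone and marrow myeloid markers moved with age, all 8 measured of 9 being lower in old samples, with a mean level of 7.13 to 8.06 on old arrays and 8.71 to 9.26 on young arrays. Of 2 measured erythroid markers of 3, Slc4a1 fell by 1.23 (limma adjusted p over genes = 0.0214) and Alas2 lay wholly lower in old samples (difference -0.37) without passing, their mean level being 5.88 to 6.0 on old arrays and 6.33 to 7.07 on young arrays. Of 4 macrophage markers, Cd68 rose by 1.16 (limma adjusted p over genes = 0.00165), and their mean level was 8.58 to 8.79 on old arrays and 8.16 to 8.30 on young arrays. Adgre1 and Aif1 lay wholly higher in old samples, by 0.43 and 0.44, without passing (limma adjusted p over genes = 0.111 and 0.0715). Csf1r, the brightest of the 4, overlapped between the ages, with a difference of -0.08. All 3 neuronal markers lay below the median signal, as did all but 1 of 3 hair cell markers. Fewer cells of a type and less RNA per cell cannot be told apart in such tissue, and the part of these cells in the results was not tested. The 3′ probe set of the Gapdh control exceeded the 5′ one by 1.26 to 1.45 on old arrays and 1.07 to 1.25 on young arrays, without overlap, while the Actb values overlapped, and its part was not tested either. Young replicate 2 stood apart, with an Xist signal of 6.06 against 11.95 to 12.65 on the other 5 arrays. All 3 old arrays had a high Xist signal, at 12.24 to 12.65, so the ages were not matched in it. Values without young replicate 2 are given beside each called member probe set and pair, and for the other splicing genes as a count.

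Upstream bases are shown for the 3 genes whose leading probe set passed under all 14 alternatives run, Tra2a, Srsf1 and Hnrnpdl. They are 250 bases before a RefSeq transcript start on the sense strand in build GRCm38.p6, from a table with entries for 34 of the 37 genes. Capitals mark matches on either strand to GGGCGG (GC box), CCAAT, TGACGTCA (cAMP response element), TATAAA or CACGTG (E-box), which do not overlap each other in these windows. The span RefSeq gives each of these genes extends further upstream than this start, so the windows lie wholly or partly within the gene spans given below.
Tra2a, minus strand of chr6:49264053-49264302: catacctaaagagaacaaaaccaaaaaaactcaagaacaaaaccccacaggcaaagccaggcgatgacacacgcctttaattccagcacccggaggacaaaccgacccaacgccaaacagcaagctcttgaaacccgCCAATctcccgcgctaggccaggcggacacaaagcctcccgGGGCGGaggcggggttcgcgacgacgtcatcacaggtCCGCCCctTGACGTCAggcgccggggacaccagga
Srsf1, plus strand of chr11:88047123-88047372: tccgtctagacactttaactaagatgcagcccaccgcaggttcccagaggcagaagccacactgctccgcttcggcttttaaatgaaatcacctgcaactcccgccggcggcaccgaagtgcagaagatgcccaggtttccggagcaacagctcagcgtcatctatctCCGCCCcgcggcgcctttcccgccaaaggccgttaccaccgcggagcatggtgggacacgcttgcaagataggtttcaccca
Hnrnpdl, minus strand of chr5:100039223-100039472: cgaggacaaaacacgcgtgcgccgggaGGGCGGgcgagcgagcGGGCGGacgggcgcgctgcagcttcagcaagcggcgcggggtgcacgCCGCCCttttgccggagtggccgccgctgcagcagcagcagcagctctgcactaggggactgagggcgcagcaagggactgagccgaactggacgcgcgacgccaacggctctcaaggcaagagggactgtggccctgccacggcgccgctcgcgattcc
GGGCGG was found in 38 of the 48 member windows and in 32.7% of all 32851 windows. CCAAT was found in 22 member windows and in 33.8% of all, TATAAA in 3 and in 12.4%, CACGTG in 3 and in 6.02%. TGACGTCA was found in 2 member windows, one of them that of Tra2a, and in 1.55% of all. A match describes letters and is not a binding site, and Tra2a and Srsf1, which both rose, had only GGGCGG in common among these motifs.

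Tra2a (chr6:49243921-49264248) rose on the probe sets 1442886_at and 1454725_at. On 1442886_at the old arrays read 8.94, 9.01 and 8.90, and the young arrays read 8.18, 8.40 and 8.0. Every old array lay above every young one, with young replicate 2 the nearest to the old group. The means were 8.95 ± 0.06 in old and 8.19 ± 0.20 in young tissue (SD, n = 3 each), a difference of 0.76 ± 0.11 (SE), or 1.69-fold (limma adjusted p = 0.00931). On 1454725_at, the brightest of the gene, the old arrays read 11.03, 11.11 and 11.09 and the young arrays 10.59, 10.76 and 10.53. The groups again did not overlap, and the difference was 0.45 ± 0.09 (limma adjusted p = 0.0270). Without young replicate 2 the differences were 0.86 and 0.52 (limma adjusted p = 0.00395 and 0.0132). The call on 1442886_at held on leaving out any single array, with an adjusted p of at most 0.0398, while that on 1454725_at was lost on leaving out any array except young replicate 2, with an adjusted p of up to 0.118.

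The other 4 Tra2a probe sets did not pass. Of these, 1429680_at, the only other one above the median signal, read 6.64, 6.46 and 6.44 in old and 6.66, 6.51 and 6.45 in young tissue, with groups that overlapped. The remaining 3 were dim, with old means of 3.91 to 6.21 and young means of 3.64 to 5.95, and differences of 0.04 to 0.27. Its paralogue Tra2b had no called probe set among 5, with differences of -0.22 to 0.11. The brightest Tra2b probe set read 11.69, 11.66 and 11.61 in old and 11.47, 11.69 and 11.60 in young tissue (difference 0.07, 95% interval -0.13 to 0.26, limma adjusted p = 0.764). The difference between Tra2a and Tra2b was not tested.

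Srsf1 (chr11:88046499-88053757), the founding SR protein, rose on 2 of its 7 probe sets. On 1452430_s_at the old arrays read 8.78, 8.88 and 8.90, and the young arrays read 8.11, 8.24 and 8.30. Both ages were tight and 0.48 apart at their closest, and the means of 8.85 ± 0.06 in old and 8.22 ± 0.10 in young tissue differed by 0.64 ± 0.08, or 1.55-fold (limma adjusted p = 0.00646). On 1430982_at the old arrays read 11.23, 11.24 and 11.22 and the young arrays 10.87, 10.94 and 10.77, a difference of 0.37 ± 0.08 (limma adjusted p = 0.0365). Groups did not overlap on either. Without young replicate 2 the differences were 0.65 and 0.41 (limma adjusted p = 0.0103 and 0.0278). The first call held on leaving out any single array (adjusted p of at most 0.0436), and the second was lost except without young replicate 2 (up to 0.142).

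For 5 of the 7 Srsf1 probe sets the old group lay wholly above the young one. Among all probe sets above the median signal, the ages did not overlap, in either direction, on 33.8%. The 3 of the 5 Srsf1 probe sets that did not pass were 1453722_s_at, 1428099_a_at and 1434972_x_at. They differed by 0.33 ± 0.09, 0.30 ± 0.09 and 0.22 ± 0.09, with limma adjusted p-values of 0.0738, 0.105 and 0.233. Without young replicate 2 the first of these had a difference of 0.40 and an adjusted p of 0.0298. In contrast, 1428100_at overlapped, at 9.61, 9.75 and 9.71 in old and 9.84, 9.85 and 9.57 in young tissue, with a difference of -0.06. The dim 1457136_at was at 3.92 ± 0.15 in old and 3.84 ± 0.07 in young tissue. Probe sets with the suffix _s_at or _x_at can bind transcripts of more than a single gene, which applies to 1452430_s_at, 1453722_s_at and 1434972_x_at. The same limit holds below for every member probe set with these suffixes, of which 14 end in _s_at and 11 in _x_at. Among them are 1416721_s_at and 1447898_s_at of Srsf6, 1417136_s_at of Srpk2 and 1423050_s_at, the brightest of Hnrnpu. In Hnrnpdl they are 1428225_s_at, 1456698_s_at and 1420093_s_at.

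**Figure D1:**
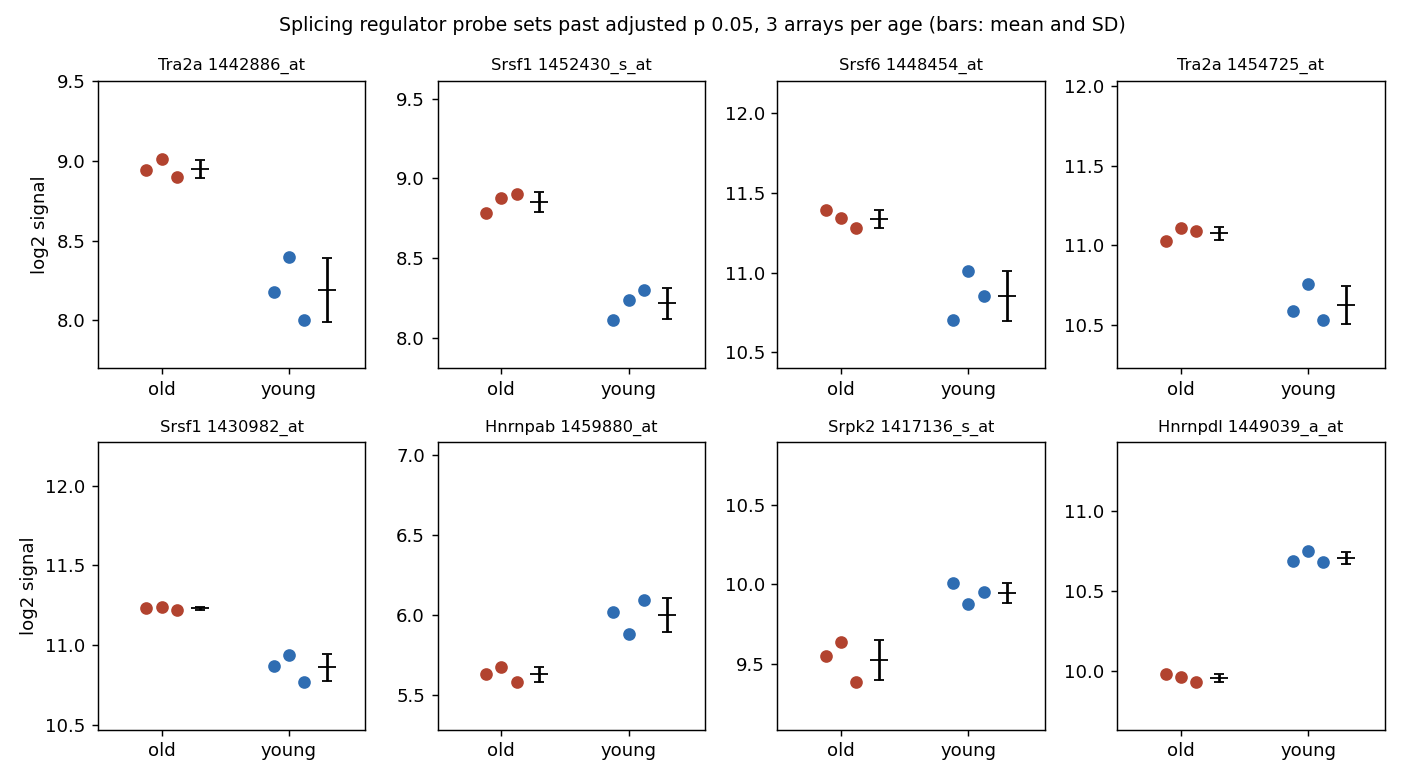
Log2 signal (vertical axis, a range of 1.8 in every panel) of the 8 called splicing regulator probe sets, with 3 old arrays on the left and 3 young arrays on the right of each panel, and the mean and SD beside them. Old lies wholly above young for Tra2a, Srsf1 and Srsf6, and wholly below it for Hnrnpab, Srpk2 and Hnrnpdl.

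Srsf6 (chr2:162931508-162937121), an SR protein also known as SRp55, rose on 1 probe set, while its other 3 had negative differences. On 1448454_at the old arrays read 11.39, 11.34 and 11.28, and the young arrays read 10.70, 11.01 and 10.85. The difference was 0.48 ± 0.10, or 1.40-fold (limma adjusted p = 0.0297), without overlap between the ages. The other 3 probe sets, 1416721_s_at, 1447898_s_at and 1416720_at, differed by -0.23, -0.21 and -0.22 and did not pass, with limma adjusted p-values of 0.138, 0.207 and 0.171. On 1416721_s_at, the brightest, the old arrays read 11.76, 11.80 and 11.70, and the young arrays read 12.05, 11.93 and 11.98. All 3 had old values wholly below the young ones, so the ages were separated on all 4 Srsf6 probe sets, once upward and otherwise downward. Of all probe sets above the median signal, 33.8% were likewise separated. The call on 1448454_at was lost on leaving out any array except young replicate 2, with an adjusted p of up to 0.106, and without young replicate 2 the difference was 0.56 (limma adjusted p = 0.0134).

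The other 8 SR protein genes had no called probe set among 22, with differences of -0.60 to 0.35 and no adjusted p under 0.149. The lowest was a probe set of Srsf11 with a wide spread, 1430077_at, whose old arrays read 6.17, 7.08 and 6.66 and whose young arrays read 7.16, 6.94 and 7.60. Srsf5, whose single probe set had the highest brightest-probe-set difference of the family, read 11.85, 11.34 and 11.38 in old and 11.43, 10.99 and 11.26 in young tissue. Its groups overlapped (difference 0.30, 95% interval -0.07 to 0.66). Srsf12 was dim, at 5.29, 5.58 and 5.48 in old and 4.97, 5.39 and 5.35 in young tissue. The brightest Srsf11 probe set, 1452371_at, read 11.72, 11.65 and 11.62 in old and 11.74, 11.72 and 11.63 in young tissue. That of Srsf10, 1423982_at, read 11.00, 10.95 and 10.91 in old and 10.90, 11.10 and 10.93 in young tissue. For these the 95% intervals of the difference were -0.21 to 0.14 and -0.22 to 0.17. Srsf3, the smallest SR protein, had 6 probe sets within -0.19 and 0.10 of no difference, none with separated ages.

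Among the kinases, Clk1 was separated by age but did not pass. Its single probe set read 12.07, 12.25 and 12.19 in old and 11.84, 11.95 and 11.52 in young tissue, and the lowest old array lay above the highest young array. The difference was 0.40 ± 0.12 (95% interval 0.13 to 0.67, limma adjusted p = 0.101), and without young replicate 2 it was 0.49 with an adjusted p of 0.0498. Clk2 read 9.91, 10.07 and 10.01 in old and 9.91, 9.95 and 9.97 in young tissue (difference 0.05, interval -0.13 to 0.23). Clk3 read 9.75, 9.81 and 9.90 in old and 9.89, 9.92 and 10.04 in young tissue (difference -0.13, interval -0.32 to 0.06). The brighter Clk4 probe set read 9.79, 9.83 and 9.79 in old and 9.96, 10.03 and 9.59 in young tissue (difference -0.06, interval -0.32 to 0.21). All of these overlapped, and the other Clk4 probe set had a difference of 0.04. Srpk1 read 9.77, 9.64 and 9.60 in old and 9.43, 9.61 and 9.60 in young tissue on its brighter probe set, a difference of 0.12 with an interval of -0.08 to 0.33.

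Srpk2 (chr5:23503356-23684642) was lower in old tissue on 1417136_s_at. The old arrays read 9.55, 9.64 and 9.39, and the young arrays read 10.01, 9.88 and 9.95. The difference was -0.42 ± 0.09 (limma adjusted p = 0.0379), and the ages did not overlap. The brightest probe set, 1417135_at, read 10.08, 10.18 and 9.91 in old and 10.53, 10.34 and 10.49 in young tissue, with a difference of -0.40 ± 0.10 that did not pass (limma adjusted p = 0.0576, and 0.0404 without young replicate 2). On 2 further probe sets the old arrays lay wholly above the young ones. Of these, 1417134_at read 10.18, 10.19 and 10.18 in old and 10.02, 10.10 and 9.96 in young tissue, and 1448603_at read 8.10, 8.07 and 8.27 in old and 7.56, 7.96 and 7.95 in young tissue. Neither passed, at differences of 0.16 and 0.32 with limma adjusted p-values of 0.316 and 0.189. The call on 1417136_s_at was lost on leaving out any array except young replicate 2 (up to 0.161), without which the difference was -0.45 (limma adjusted p = 0.0375).

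Hnrnpdl (chr5:100033577-100039936), an RNA-binding relative of the AU-rich element factor Hnrnpd, gave the smallest p-value of the members. On 1449039_a_at the old arrays read 9.98, 9.96 and 9.93, and the young arrays read 10.69, 10.75 and 10.68. The ages were 0.70 apart at their closest, against a spread within each age of at most 0.07. The means of 9.96 ± 0.03 in old and 10.71 ± 0.04 in young tissue differed by -0.75 ± 0.07, or 1.68-fold lower (limma adjusted p = 0.00230). Leaving out any single array kept the call, with an adjusted p of at most 0.0166, and without young replicate 2 the difference was -0.73 (limma adjusted p = 0.00401).

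The ages were separated on all 7 Hnrnpdl probe sets, in 5 downward and in 2 upward, beside 33.8% of all probe sets above the median signal. On the 6 that did not pass, the ages were only 0.05 to 0.12 apart at their closest. The 4 other downward ones had differences of -0.28 to -0.16, among them the brightest, 1424251_a_at, at 13.02, 13.08 and 13.05 in old and 13.21, 13.24 and 13.17 in young tissue. The upward ones were 1428225_s_at and 1424252_at. The first read 9.35, 9.31 and 9.39 in old and 8.98, 9.19 and 8.91 in young tissue (difference 0.32, limma adjusted p = 0.0925, and 0.0293 without young replicate 2). The second read 11.52, 11.53 and 11.45 in old and 11.34, 11.40 and 11.03 in young tissue (difference 0.24, limma adjusted p = 0.262).

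The other hnRNP call was on a dim probe set of Hnrnpab (chr11:51600100-51606881), a relative of Hnrnpd that binds RNA and single-stranded DNA. On 1459880_at the old arrays read 5.63, 5.67 and 5.58, and the young arrays read 6.02, 5.88 and 6.09, a difference of -0.37 ± 0.08 (limma adjusted p = 0.0461). The call was lost on leaving out any array except young replicate 2 (up to 0.188), without which the difference was -0.43 (limma adjusted p = 0.0249), and its level lay under the median signal. The other 6 Hnrnpab probe sets overlapped and had differences of -0.09 to 0.10.

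The remaining 17 hnRNP genes had no call on 44 probe sets, with differences between -0.27 and 0.29 and no adjusted p under 0.0786. Hnrnpa1, a splicing repressor, had the lowest brightest-probe-set difference, with 10.71, 11.00 and 10.94 in old and 11.00, 11.13 and 11.32 in young tissue (-0.27, limma adjusted p = 0.241). Hnrnpa1 has near-identical processed copies in the genome, so its signal is uncertain. Hnrnpa0 read 11.35, 11.36 and 11.42 in old and 11.63, 11.53 and 11.50 in young tissue, without overlap (-0.18, limma adjusted p = 0.259). On the upward side, Hnrnpul2 read 10.34, 10.37 and 10.44 in old and 10.16, 10.11 and 10.28 in young tissue (0.20, limma adjusted p = 0.222). Hnrnph3 read 9.55, 9.22 and 9.16 in old and 9.10, 9.11 and 9.13 in young tissue, 1 old array carrying most of the difference of 0.20. Hnrnpu, a nuclear scaffold protein, read 12.04, 12.14 and 12.17 in old and 11.92, 11.96 and 11.99 in young tissue on its brightest probe set (0.16, limma adjusted p = 0.310). All 5 Hnrnpu probe sets and all 4 of Hnrnpa2b1 had positive differences, of 0.03 to 0.29 and 0.02 to 0.28. So did the 2 of Hnrnph1 and the 2 of Hnrnpul2. All 4 of Hnrnpf, all 4 of Hnrnpk and all 5 of Hnrnpr had negative ones, and none of these passed the threshold. A single sign throughout was common, at 58.5% of all genes with at least 2 probe sets above the median signal, counted over those probe sets.

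**Figure D2:**
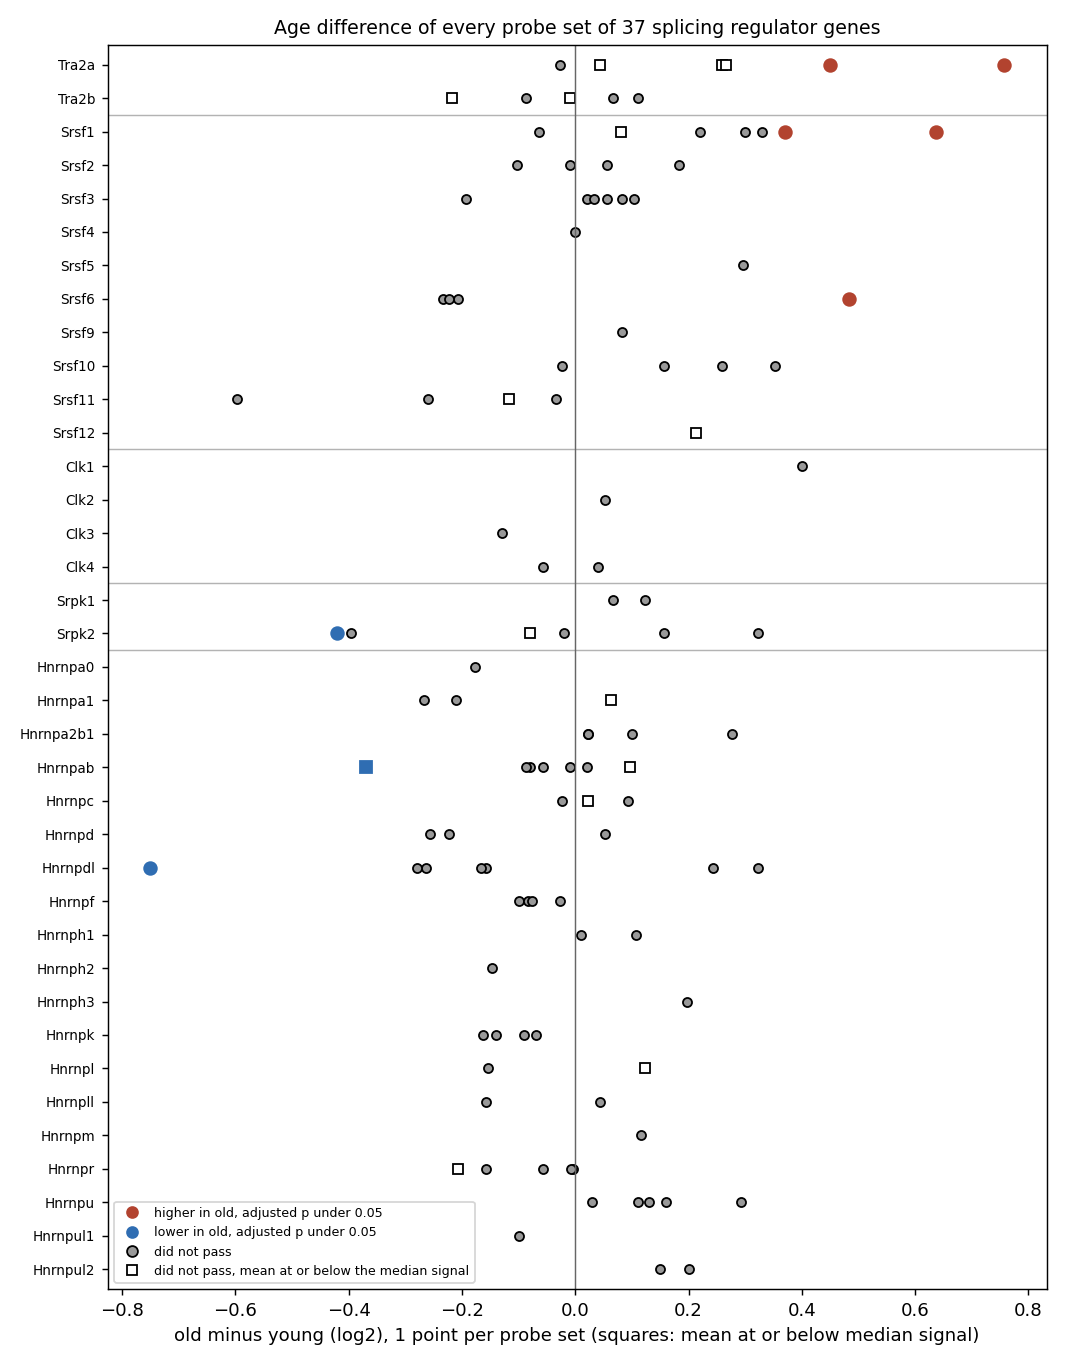
Old minus young difference (log2, horizontal axis) of all 115 probe sets, with 1 row per gene, grouped as Tra2, SR proteins, Clk kinases, Srpk kinases and hnRNPs from the top. Coloured symbols are the 8 called probe sets and squares have a mean at or below the median signal. Hnrnpdl spans -0.75 to 0.32, while the 4 probe sets of Hnrnpf lie between -0.10 and -0.03.

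Over all members, the ages did not overlap on 42 of 115 probe sets (36.5%), 22 with old above and 20 with old below. The same held for 23.8% of all probe sets, 12.5% above and 11.3% below. Among the 100 brighter members it held for 39, beside 33.8% of all brighter probe sets.

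The agreement of probe sets within a gene was then examined over those above the median signal. Of 24 member genes with at least 2 such probe sets, 10 had differences of the same sign throughout, beside 58.5% of 4896 such genes in all. The members had a median of 4 such probe sets and all genes a median of 2, so the shares are not on an equal footing. The range of differences within a gene was widest for Hnrnpdl (1.07), Tra2a (0.78), Srpk2 (0.74), Srsf6 (0.72) and Srsf1 (0.70), and the median range was 0.23 for members and 0.16 for all genes. The Tra2a range rested on 1429680_at, whose mean of 6.53 lay little above the median signal of 6.28. The other 2 Tra2a probe sets above the median signal both rose.

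Whether probe sets of the same gene changed by different amounts was tested directly, by subtracting the brightest probe set from each other probe set on every array and comparing these values between ages with limma. Of 78 member pairs, 4 passed at an adjusted p of 0.05 over all pairs, beside 4.27% of all 16752 pairs, a share near that of the members. Without young replicate 2, 6 member pairs passed, beside 6.89% of all. In Srsf6, 1448454_at minus 1416721_s_at was -0.37, -0.46 and -0.42 on old arrays and -1.35, -0.92 and -1.13 on young arrays. This rise relative to the brightest probe set was 0.72 ± 0.12 (limma adjusted p = 0.0232, and 0.00948 without young replicate 2). In Srpk2, 1417134_at minus 1417135_at was 0.10, 0.01 and 0.27 on old arrays and -0.51, -0.24 and -0.53 on young arrays, a shift of 0.55 ± 0.12 (limma adjusted p = 0.0395, and 0.65 with 0.0211 without young replicate 2).

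The other disagreeing pairs belonged to Hnrnpdl. There 1449039_a_at minus 1424251_a_at was -3.04, -3.12 and -3.12 on old arrays and -2.52, -2.49 and -2.49 on young arrays, a shift of -0.59 ± 0.09 (limma adjusted p = 0.0194, and 0.0193 without young replicate 2). For 1428225_s_at against the same brightest probe set, the values were -3.67, -3.77 and -3.66 on old and -4.23, -4.05 and -4.26 on young arrays, a shift of 0.48 ± 0.10 (limma adjusted p = 0.0374, and 0.0258 without young replicate 2). The groups of all 4 called pairs did not overlap. A second Srpk2 pair (1448603_at, 0.72) and 1452430_s_at of Srsf1 (0.42) were next, with limma adjusted p of 0.0546 and 0.0568. All 4 pair calls were lost on leaving out old replicate 1, old replicate 3, young replicate 1 or young replicate 3, with adjusted p of up to 0.0885 and 0.157 for Hnrnpdl, 0.0953 for Srsf6 and 0.166 for Srpk2. Where in each transcript these probe sets lie was not used here, so which RNA species each one reads, and the part of the 3′ excess given above, were not tested.

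**Figure D3:**
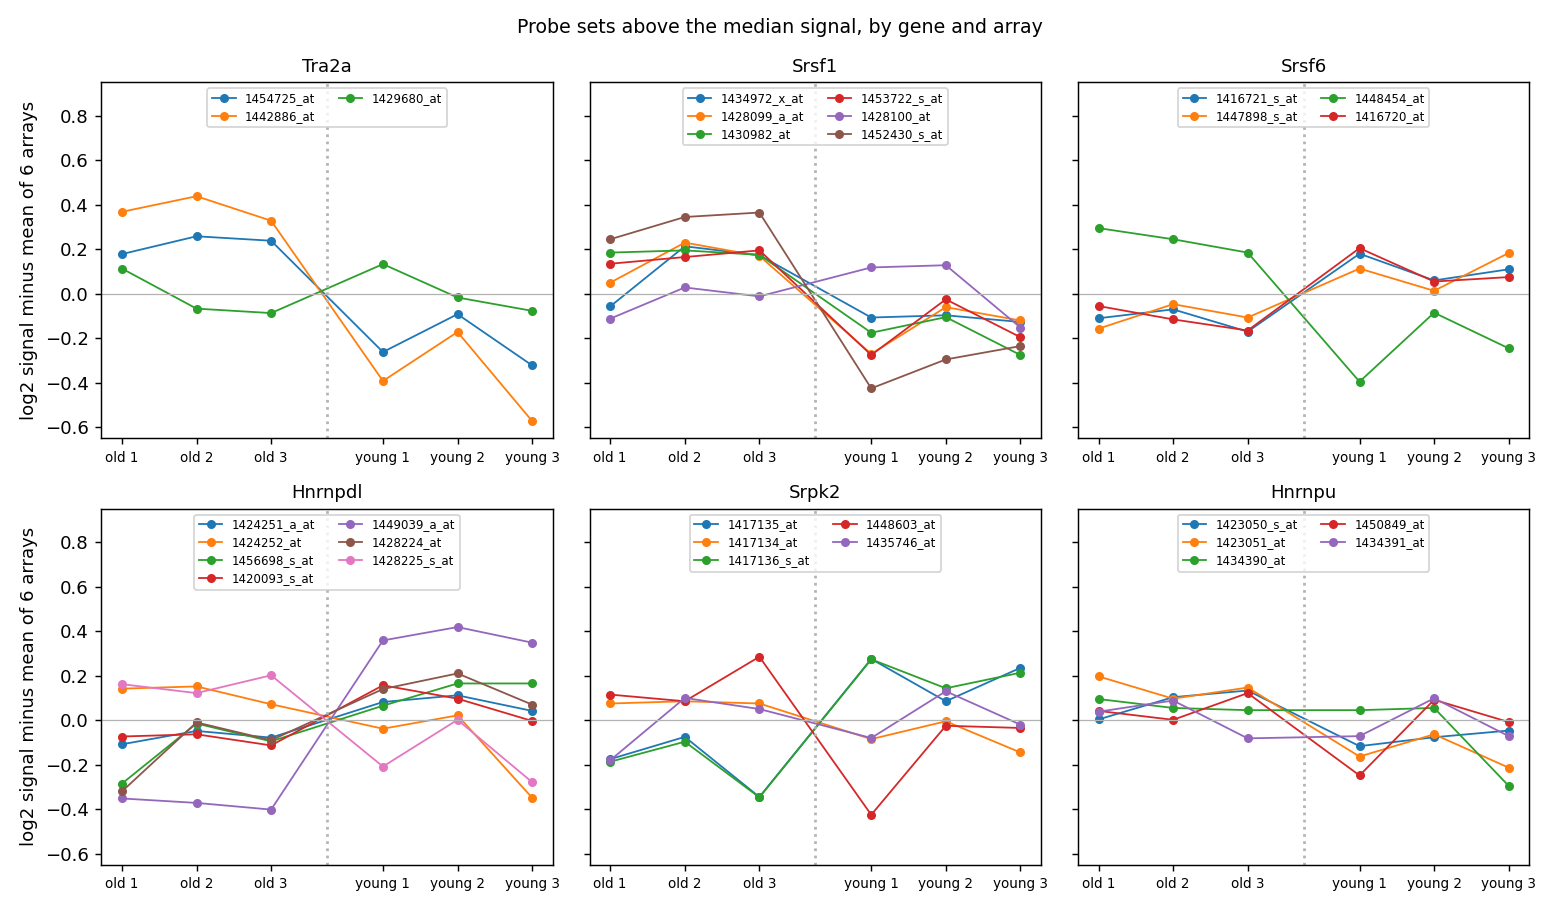
Log2 signal minus the mean of the 6 arrays (vertical axis) for each probe set above the median signal of 6 genes, over 3 old arrays (left of the dotted line) and 3 young arrays (right). In Srsf6, 1448454_at runs opposite to the other 3 probe sets; in Hnrnpdl 2 of 7 do so; all 5 Hnrnpu probe sets have a positive old minus young difference.

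**Figure D4:**
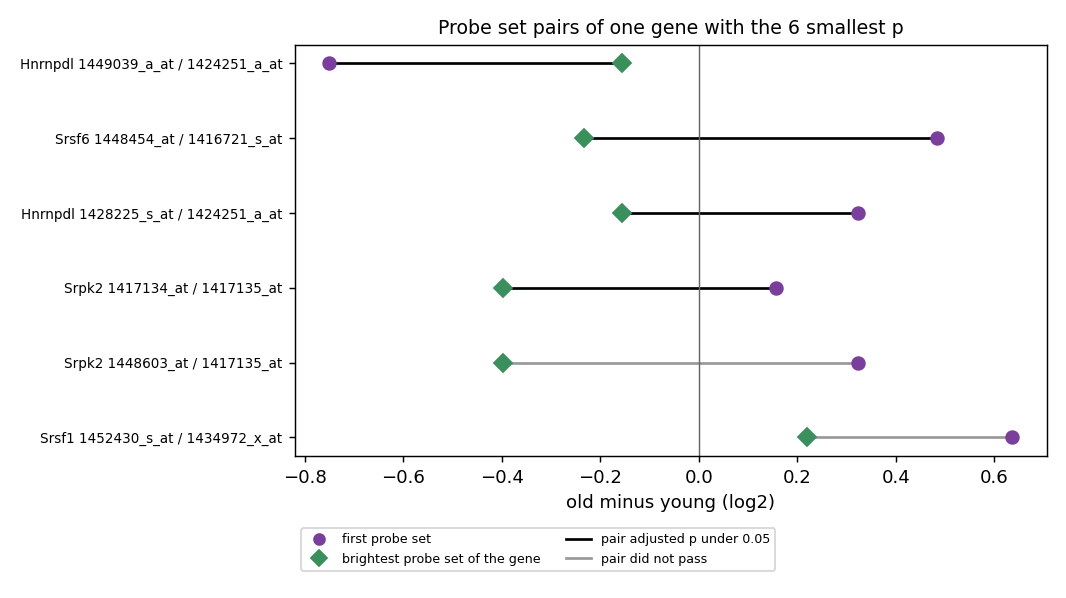
Old minus young difference (log2, horizontal axis) of the 2 probe sets in each of the 6 within-gene pairs with the smallest p; circles are the first-named probe set and diamonds the brightest of the gene. Black lines join the 4 pairs past an adjusted p of 0.05, and 3 of these 4 lie on opposite sides of zero, as did 67.1% of all 715 called pairs.

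Other genes of the splicing pathway showed scattered changes at 1 probe set per gene. Of 202 measured genes in 5 lists, 6 rose, 4 fell and 192 did not pass (4.95%, beside 4.86% of all genes), with a median difference of 0.03, the same as over all genes. When each gene's probe sets were averaged in place of taking the brightest, 10 list genes again passed, but 3 were higher and 7 lower (4.97% of all genes passed, 2.37% higher and 2.60% lower), so the split by direction turned round. Among 62 other context-dependent splicing regulators, 4 rose and 1 fell. Cirbp, an RNA-binding protein induced by mild cooling, fell by 1.05, with 9.66 ± 0.10 in old and 10.71 ± 0.12 in young tissue (limma adjusted p over genes = 0.00122). Ralyl rose by 1.27 (0.00165), and the paraspeckle protein gene Sfpq by 0.51 (0.0168). Tardbp, which encodes TDP-43, rose by 0.47, and Celf5 by 0.44 (limma adjusted p over genes = 0.0382 and 0.0459). Celf5 was dim, with means of 6.37 in old and 5.93 in young tissue beside the median signal of 6.28.

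Of 34 SR-related and exon junction genes, Rsrp1, an arginine- and serine-rich protein gene, rose by 0.56 and Bclaf1 fell by 0.37 (limma adjusted p over genes = 0.0140 and 0.0413). Among 71 core spliceosome genes, the minor spliceosome component Snrnp25 rose by 0.39, and the Sm core protein gene Snrpd3 and the U1-associated Prpf39 fell by 0.42 and 0.45 (limma adjusted p over genes = 0.0463, 0.0338 and 0.0359). None of 19 further SR kinases, phosphatases and partners and none of 16 nonsense-mediated decay factors, which degrade transcripts with poison exons, passed in limma. Over the 5 lists, 23 genes (11.4%) passed without young replicate 2, 18 higher and 5 lower, beside 8.99% of all genes, 6.21% higher and 2.79% lower, and 2 to 4 on leaving out any other array.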

How the data were processed

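RNA from dissected lateral wall was labelled with a 3′ IVT kit, which primes at the poly(A) tail, and put on 1-colour arrays, per the labels' protocols. Expression Console, MAS5 and RMA appear in the submitters' processing notes; what each did, and its version, is not given in the sources used here. As deposited by the authors, the 45101 probe sets carry log2 values on 6 arrays, rounded to 2 decimals, with array medians of 6.26 to 6.30. The files used here give no scan date or slide. The number of arrays limits precision.

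The 64 control probe sets were left out. Genes were named from GEO's platform annotation; 34945 probe sets had 1 symbol, 932 several and 9160 were not listed. The 7 with several symbols including a member's were not used. All 37 symbols matched RefSeq. Members and lists were chosen with earlier results of these data known. All member genes may be named; per-array values go to called genes, kinases, Tra2 genes, the 3 highest and 3 lowest Srsf and Hnrnp genes by brightest probe set, and genes with disagreeing pairs; a few others were named after their values were seen. From the lists, up to 4 called genes per direction are named. Limma 3.58.1 in R 4.3.3 was fitted across all probe sets on age alone, with Benjamini-Hochberg adjustment. Gene counts were adjusted over genes and pairs over all pairs. On simulated data with a known set of the 45037 probe sets changed, limma called 27.3% of changes of 0.5 log2, 77.6% of 1 and 98.6% of 2. The pair test over 16752 pairs called 9.85%, 79.7% and 98.5%. These were 670, 670 and 660 changes over 10 draws, only in probe sets other than the brightest of a gene. Noise was independent between probe sets, and fewer changed per draw than were called in the real data. These shares therefore do not give the sensitivity of the real comparison. Alternatives were median centring, cyclic loess, repeated quantile normalization, dropping dim probe sets, trend with robust variance, array weights, a replicate block, averaging probe sets per gene, a stricter threshold of 0.01 and leaving out each array. Figures were drawn with matplotlib 3.10.9.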

Additional observations from a re-analysis of the deposited data

How the results depend on the processing

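Called member probe sets, 8 at first, also numbered 8 under median centring, repeated quantile normalization and cyclic loess. The count was 13 with an intensity trend and robust variance, 16 with array weights, 5 with the replicate block and 3 at an adjusted p of 0.01, and 3 to 12 on leaving out 1 array. Over all 45037 probe sets 2119 were called, against 2676 with trend and robust variance, 4480 with array weights, 1932 with the replicate block, 436 at an adjusted p of 0.01 and 515 to 3393 on leaving out 1 array. Called member genes, 1 at first, numbered 2 with the dim filter, 4 with trend and robust variance, 3 with array weights, 0 at an adjusted p of 0.01 and 0 to 3 on leaving out 1 array. Disagreeing pairs, 4 at first, numbered 8 with the dim filter, 13 with array weights, 0 at an adjusted p of 0.01 and 0 to 6 on leaving out 1 array. Apart from the fit without young replicate 2, the share over all pairs in these settings is not given here. Called genes of the other lists, 10 at first, numbered 21 (10.4%) with trend and robust variance and 28 (13.9%) with array weights. They numbered 2 (0.990%) at an adjusted p of 0.01 and 2 to 23 on leaving out 1 array. Over all genes, 4.86% passed at first, 7.01% with trend and robust variance and 11.0% with array weights. The share of all genes was 8.05% with the dim filter, 1.17% at an adjusted p of 0.01 and 1.34% to 8.99% on leaving out 1 array. The causes were not tested. The median difference of members stayed between -0.01 and 0.04.

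Calls on Tra2a 1442886_at, Srsf1 1452430_s_at and Hnrnpdl 1449039_a_at held under all 14 alternatives run for each. Of 432 alternative values for 31 named differences and pairs, 366 kept their side of the threshold, 58 lost it, 8 gained it and 0 reversed a call. All 58 losses fell on called probe sets and pairs, since a difference without a call had none to lose. Apart from the calls named above that held, each called probe set or pair was lost in 5 to 8 alternatives. The 366 therefore do not measure how stable the calls were. The pairing check for the replicate block gave correlations of 0.14, 0.08 and 0.01 between arrays of the same number. Between arrays of different number they were -0.11 to 0.07. With 3 arrays per age, such low values cannot settle whether the numbers pair the samples. The 5 member calls under the block are given as a count, without a choice between the fits. Probe sets without a call at 3 arrays per age may still differ.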
